A study of Mus musculus with 5 samples.

Results

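RNA Polymerase II intervals that were called only in the presence of PARP-14 were described in Th2 cells. They were the intervals of the Parp14+/+ library that overlapped, by at least 1 bp, an interval of the Parp14+/+ + PJ34 library and overlapped no interval of the Parp14-/- or the Parp14-/- + PJ34 library. Of the 11692 intervals of the Parp14+/+ library, 1467 (12.5%) met this rule. They covered 7.13 Mb of the 98.1 Mb under all Parp14+/+ intervals, or 7.27%. The members were chosen by the interval calls of the 4 libraries, so lower signal without PARP-14 was built into the choice. All values below describe these libraries, and no test was run.

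PARP-14 is an ADP-ribosyltransferase that acts as a cofactor of STAT6, the transcription factor through which IL-4 drives naive CD4+ T cells toward the Th2 fate. Th2 cells produce IL-4, IL-5 and IL-13, the cytokines of allergic and anti-parasite responses. RNA Polymerase II carries phosphate on serine 2 of its C-terminal repeats while it elongates, and this form builds up along the bodies of transcribed genes toward their ends. An interval is a stretch of genome in which fragments brought down with an antibody to this form exceed those of the Input, and its summit height is the number of overlapping fragments at its highest point.

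Naive CD4+CD62L+ T cells were taken from spleens of young C57BL6 mice, activated for 3 days with antibodies to CD3 and CD28 in the presence of IL-4 (10 ng/ml) and an antibody to IFN-g, and grown for 4 more days in IL-2 and IL-4. The 4 ChIP libraries came from cells of each genotype, Parp14+/+ and Parp14-/-, without or with PJ34, with 1 library for each condition, and chromatin of both genotypes was mixed in equal parts as the Input. Parp14-/- cells came from mice with a germline deletion, so the cells had lacked PARP-14 throughout their development and differentiation. PJ34 is an inhibitor of PARP enzymes that is not specific to PARP-14. The labels gave its dose as 10 µM on differentiated cells, and the study's methods gave a lower dose, present during culture. The number of mice or cultures behind a library was not given in the sources used here.

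Without replicates, no difference between these libraries could be set against the spread between cultures. The alignments of the libraries were made equal in number by the authors, yet the intervals covered from 65.5 Mb in Parp14-/- + PJ34 to 98.1 Mb in Parp14+/+. By genome position, all 8 T cell markers and all 6 Th2 markers (Il4, Il5, Il13, Gata3, Il1rl1 and Ccr8) lay under intervals in Parp14+/+, as did 2 of 3 Th1 markers, Ifng and Tbx21. In Parp14+/+ intervals lay over 0 of 2 CD8 T cell, 0 of 5 B cell and 0 of 2 NK cell markers, and over 1 of 4 myeloid markers, Csf1r. The interval at Csf1r also lay in another gene, A630042L21Rik. In Parp14+/+ + PJ34, Parp14-/- and Parp14-/- + PJ34 the T cell markers under an interval were 7, 6 and 7 of 8, and the Th2 markers were 6, 4 and 5 of 6. In Parp14+/+ + PJ34 an interval also lay over 1 of 5 B cell markers. Of the deleted gene, Parp14, intervals took up 22873 bp (untreated) and 20836 bp (PJ34) in the Parp14+/+ libraries, and 2686 bp and 3286 bp in the Parp14-/- libraries.

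The sequences at 4 summits are shown, those of the members at the Th2 genes Il5 and Pparg, of the tallest member with a summit in an intron, Rpp38, and of the longest member, at Pik3cg. Each is the plus strand of mm9 around the summit of the Parp14+/+ interval, with a 300 bp window that was shortened at Rpp38 to leave out annotated UTR. Capitals mark AGATAA, a sequence that GATA factors bind, or TTC and GAA separated by any 3 or 4 bases, the palindrome that STAT factors bind, searched on both strands.
Il5, chr11:53538764-53539063, past the end of the gene: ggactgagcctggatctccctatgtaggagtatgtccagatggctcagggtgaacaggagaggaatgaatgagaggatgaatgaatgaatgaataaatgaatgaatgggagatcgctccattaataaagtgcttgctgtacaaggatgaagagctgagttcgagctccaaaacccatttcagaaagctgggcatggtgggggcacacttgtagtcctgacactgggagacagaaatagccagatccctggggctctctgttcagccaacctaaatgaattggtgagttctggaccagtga
Pparg, chr6:115371580-115371879, in an intron by GENCODE: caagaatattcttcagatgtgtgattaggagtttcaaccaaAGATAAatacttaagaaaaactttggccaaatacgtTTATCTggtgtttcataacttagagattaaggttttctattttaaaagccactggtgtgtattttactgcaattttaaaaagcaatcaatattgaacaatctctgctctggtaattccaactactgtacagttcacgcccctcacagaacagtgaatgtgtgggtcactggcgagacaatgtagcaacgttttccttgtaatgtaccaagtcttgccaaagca
Rpp38, chr2:3249612-3249798, in an intron by GENCODE: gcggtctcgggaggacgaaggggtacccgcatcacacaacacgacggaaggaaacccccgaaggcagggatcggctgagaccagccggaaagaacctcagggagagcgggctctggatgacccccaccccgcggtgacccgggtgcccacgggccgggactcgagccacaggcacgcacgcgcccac
Pik3cg, chr12:32886828-32887127, in an intron: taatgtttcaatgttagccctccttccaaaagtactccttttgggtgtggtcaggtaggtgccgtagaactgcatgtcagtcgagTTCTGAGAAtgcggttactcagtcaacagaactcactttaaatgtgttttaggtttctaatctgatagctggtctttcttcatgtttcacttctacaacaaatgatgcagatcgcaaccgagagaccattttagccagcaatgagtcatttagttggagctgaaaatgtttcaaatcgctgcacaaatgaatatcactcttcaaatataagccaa
The Pparg window held AGATAA in both orientations, and the Pik3cg window held 1 STAT palindrome. The Il5 and Rpp38 windows held neither sequence. GC content was 69.5% at Rpp38, near its gene start, and from 36.3% at Pparg to 47.7% at Il5 in the other windows, and Rpp38 had 19 CpG dinucleotides.

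Il5, which encodes the cytokine that drives eosinophil growth and survival, had the highest Parp14+/+ to Parp14-/- ratio of 91 active regions that held a member and no Parp14-/- interval. The member at Il5 (chr11:53532151-53543250, 11100 bp) spanned the whole gene (chr11:53534296-53538605, plus strand) and 66.2% of it was covered by the Parp14+/+ + PJ34 interval. Its summit stood 308 bp past the gene end, outside the annotated gene. Il5 had a single active region, with a height of 21 in Parp14+/+ with and without PJ34, of 4 in untreated Parp14-/- cells and of 6 in Parp14-/- cells with PJ34. Both Parp14+/+ libraries were thus well above both Parp14-/- libraries, with a Parp14+/+ to Parp14-/- ratio of 5.25 and a ratio of 3.5 in the PJ34-treated pair. The nearest Parp14-/- interval of either library lay 9751 bp away.

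Most members were low and short. The summit height in Parp14+/+ ranged from 4 to 33 fragments, with a median of 7 and quartiles of 6 and 9. The 5151 Parp14+/+ intervals that overlapped intervals of all 3 other libraries had a median height of 11, with quartiles of 9 and 16 and a maximum of 172. The 2257 Parp14+/+ intervals that overlapped none in any other library also had a median height of 7. Their median length was 3000 bp, so low and short intervals were not particular to the members. Of the members, 1014 (69.1%) had a height from 6 to 9, 242 reached 10 or more and 8 reached 20 or more, against 853 (16.6%) at 20 or more among the intervals in all 4 libraries. Members made up 18.5% of Parp14+/+ intervals with heights of 6 and 7, 7.43% of those from 10 to 14 and 0.271% of those of 30 or more, so that few tall intervals were members. For the intervals found in all 4 libraries these shares went the other way, 18.2%, 63.0% and 99.2%.

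**Figure D1:**
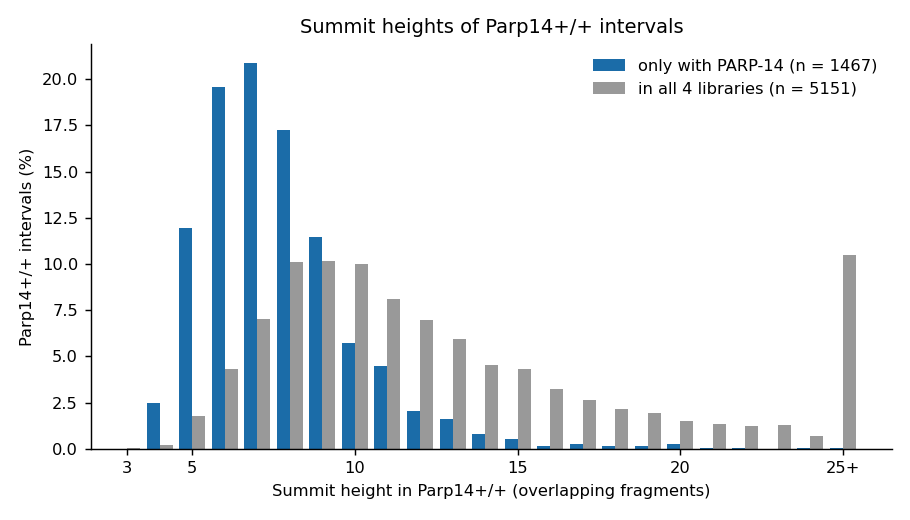
Share of Parp14+/+ intervals (%) by summit height in Parp14+/+ (overlapping fragments; the last bar holds 25 and above) for the 1467 intervals present only with PARP-14 and the 5151 intervals found in all 4 libraries. The former centre on a median of 7 fragments and the latter on 11, with a long upper tail.

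Members had a median length of 4200 bp, with quartiles of 2700 and 6450 bp and a range of 300 to 22500 bp. The intervals in all 4 libraries had a median length of 8850 bp. Only 94 members (6.41%) were 10 kb or longer, against 44.1% of the intervals in all 4 libraries. Height and length were weakly related over the members (Spearman's rho = 0.26, n = 1467 intervals of 1 library, which share its depth). At heights of 6 to 9 in Parp14+/+, the median length was 4500 bp for 1014 members and 6150 bp for 1626 intervals in all 4 libraries. Within this band the median height was still 7 for members and 8 for intervals in all 4 libraries. A short interval also has fewer bases with which to meet a Parp14-/- interval, so a gap in length was partly built into the rule.

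In the PJ34-treated Parp14+/+ library the intervals that overlapped members were of similar height. Such an overlap was required by the rule, and the 2 summits compared were often at different positions. The highest overlapping summit in Parp14+/+ + PJ34 had a median of 8 fragments, with quartiles of 7 and 10. It was higher than the Parp14+/+ summit in 825 members (56.2%), equal in 225 and lower in 417 (28.4%). Among the intervals in all 4 libraries it was higher in 55.2% and lower in 33.9%. Over the members the heights of the pair went together weakly, with Pearson's r of 0.36 and Spearman's rho of 0.32, in a range of heights that the rule had narrowed. A few Parp14+/+ + PJ34 intervals were much taller than the member under them, and the tallest reached 74 fragments over Hnrpul1, whose member had a height of 10.

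**Figure D2:**
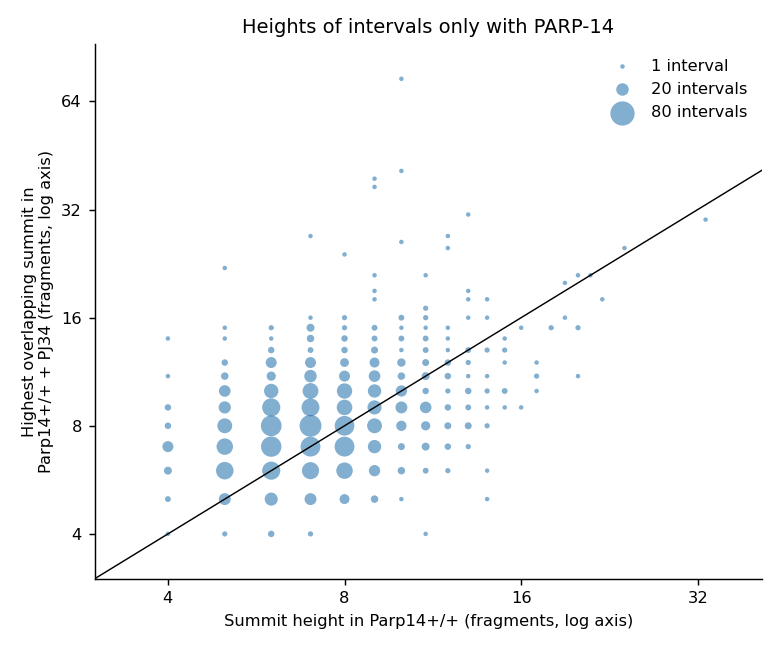
Summit height in Parp14+/+ against the highest overlapping summit in Parp14+/+ + PJ34 for the 1467 members, both in overlapping fragments on log axes, with circle area growing with the number of intervals and the line marking equal heights. More members lie above the line (825) than below it (417).

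The overlap with the PJ34-treated library was often partial. A median of 65.5% of the member's length was covered by Parp14+/+ + PJ34 intervals, with quartiles of 41.3% and 92.6%, against a median of 87.5% for the intervals in all 4 libraries. Most members (1315) met a single Parp14+/+ + PJ34 interval, and 152 met between 2 and 4. The summits of the pair lay a median of 1488 bp apart, and 330 pairs (22.5%) lay within 500 bp. Called from the other side, 1673 of the 12014 Parp14+/+ + PJ34 intervals overlapped a Parp14+/+ interval and none of either Parp14-/- library.

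The rule had a sharp edge. A Parp14-/- interval of either library lay within 1 kb of 166 members (11.3%), within 5 kb of 554 (37.8%) and within 10 kb of 769 (52.4%), with a median distance of 8851 bp. Intervals stood within 450 bp, the gap that the caller bridges within a library, of 61 members. Just inside the rule, members in Fbxl11 (chr19:4326751-4330650, height 7) and Tmem131 (chr1:36859951-36864300, height 9) abutted a Parp14-/- interval without sharing a base. Just outside it, Parp14+/+ intervals in Bcor (chrX:11627551-11629350, height 5) and at the end of Ddx1 (chr12:13224001-13227300, height 8) shared 150 bp with a Parp14-/- interval. The heights just inside and just outside overlapped.

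The mirrored rule was counted as well, with no test of the difference. In Parp14-/-, 349 of 10228 intervals (3.41%) overlapped an interval of Parp14-/- + PJ34 and none of either Parp14+/+ library. They covered 1.36 Mb, with a median height of 9 and a median length of 3450 bp. With 1 library for each condition, the genotype and the library could not be told apart in either count, and the Parp14+/+ library had the longest total length under intervals of the 4.

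Members lay mostly inside genes. Of the 1467 members, 1225 (83.5%, 95% Wilson interval 81.5 to 85.3) overlapped a gene of the deposited table, 1113 of them a single gene, and 242 overlapped none. In GENCODE annotation 1288 (87.8%) overlapped a gene. The share that overlapped a listed gene was 88.6% for intervals in all 4 libraries. By GENCODE, 914 summits (62.3%) stood in introns, 345 (23.5%) in intergenic sequence, 105 (7.16%) in UTR, 78 (5.32%) in coding sequence and 25 (1.70%) in exons of noncoding transcripts. Among intervals in all 4 libraries fewer summits were intronic, 47.6%, and more were intergenic, 33.0%. At like height this gap was absent. At heights of 6 to 9, 64.4% of member summits and 63.9% of those in all 4 libraries were intronic, and 22.8% and 23.1% were intergenic.

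The gene bodies, and less so the gene starts, held these summits. Of the 1225 members that overlapped a gene, 1031 (84.2%, 82 to 86.1) had the summit inside a gene body and 848 (69.2%) lay wholly within a gene. A gene start was covered by 178 (14.5%), a gene end by 267 (21.8%) and neither by 837 (68.3%). For the intervals in all 4 libraries a summit inside a gene body was less frequent, 66.5%, and more covered a start (40.0%) or an end (50.1%). Much of this gap was absent at like height. At heights of 6 to 9 the summit was inside a gene body in 84.9% of members and 83.2% of intervals in all 4 libraries, a start was covered by 10.6% and 13.4%, and an end by 20.9% and 26.9%. Of 1925 gene-overlapping Parp14+/+ intervals that met none in any other library, 90.1% had the summit inside a gene body. A start was covered by 11.6% of them and an end by 13.0%, so this position was not particular to members.

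Along the gene, summits were spread with more in the last part. Of 1013 members whose summit stood inside the gene they overlapped most, 182 (18%) stood in the first 20% of the gene length, 172 (17.0%) in the second, 176 (17.4%) in the third, 227 (22.4%) in the fourth and 256 (25.3%) in the last. The intervals in all 4 libraries had a second peak at the start, with 26.4% in the first 20% and 24.2% in the last. At heights of 6 to 9, the first 20% held 16.3% of summits of members and 16.4% of those of intervals in all 4 libraries. A further 59 of the 1225 members (4.82%) had the summit upstream of that gene and 153 (12.5%) downstream of it, as at Il5.

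**Figure D3:**
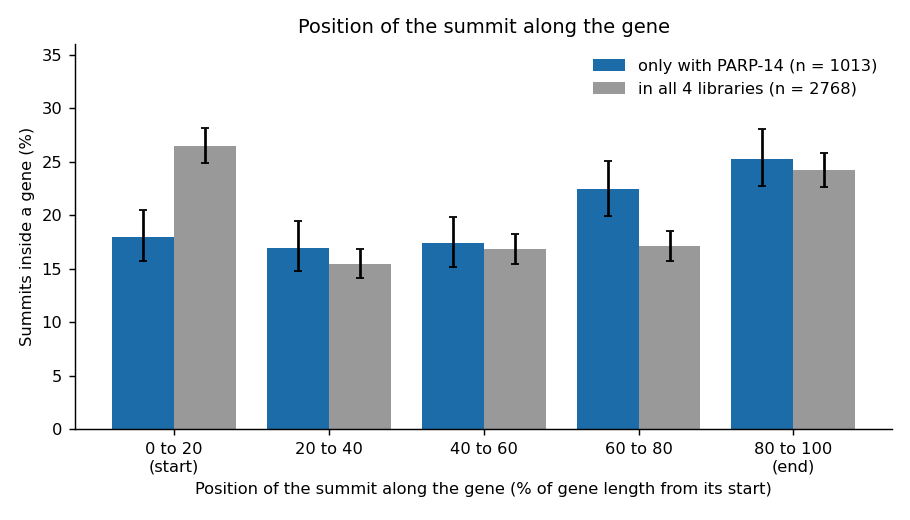
Share of summits (%) in each 20% of the gene length, from the gene start to the gene end, for 1013 members and 2768 intervals found in all 4 libraries with the summit inside a gene. Error bars are 95% Wilson intervals, which cover counting error only, and the first 20% holds 18% of the member summits against 26.4%.

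Most of the tallest members stood at gene starts. Of the 12 tallest, 11 overlapped a listed gene and each of these 11 covered a gene start, with the summit within 1 kb of the start in 10, all but Il5. Start coverage also differed with height among gene-overlapping intervals in all 4 libraries, at 40.0% of all and 13.4% of those with heights of 6 to 9. No share is given for equally tall intervals that were not members. The tallest of all (chr17:24300001-24300900, 900 bp) had heights of 33 in Parp14+/+ and 30 in Parp14+/+ + PJ34, with the summit 5 bp upstream of Amdhd2, which encodes a deacetylase of amino sugar breakdown, and it also overlapped Atp6v0c, which encodes a subunit of the proton pump of vacuoles. The average peak height of Amdhd2, the mean of the highest pile-up over its 2 active regions, was 21.5 in Parp14+/+ and 20.5 with PJ34, then 17 in Parp14-/- and 19 with PJ34. Sets of 4 heights below keep this order of libraries. Atp6v0c had the same 4 values and held 1 Parp14-/- interval, 601 bp from the member, whereas Amdhd2 held none of either Parp14-/- library.

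Sf3a3, a component of the splicing machinery that recognises branch points, had a summit of 24 in Parp14+/+ and 25 in Parp14+/+ + PJ34 at its start, 72 bp upstream (member chr4:124389901-124395000). Its average peak heights were 16, 17.5, 9.50 and 9.50 in the order above, so that both Parp14+/+ libraries were above both Parp14-/- libraries. The member at Abcf3 and Ap2m1, which encodes a clathrin adaptor subunit (chr16:20544001-20550000), had heights of 22 and 18, and Abcf3 had average peak heights of 15, 15, 10 and 8.50. Ogg1, which encodes the glycosylase that removes oxidised guanine from DNA, had heights of 18, 15, 11 and 8 in its single region (member chr6:113275201-113278200). Tssc4, which shares its member with the tetraspanin gene Cd81 (chr7:150253501-150256950), had 18, 15, 7 and 6. In Sf3a3, Abcf3, Ogg1 and Tssc4 the groups did not overlap. Ap2m1 had average heights of 21, 14, 13 and 15, so there the genotypes overlapped.

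The other tall members varied. Rpp38, which encodes a protein of ribonuclease P, had heights of 20, 11, 16 and 12 (member chr2:3245851-3252600). The 2 genotypes overlapped there, and the nearest Parp14-/- interval was 166651 bp away. The active region at AI553587 and Pno1, a ribosome assembly factor (chr11:17110801-17112900), had heights of 19, 16, 16 and 12, but it was 22200 bp long and held Parp14-/- intervals outside the member. Scamp3, which encodes a membrane protein of vesicle recycling, had average heights of 12, 11, 9.50 and 7.50 over 2 regions, and Hn1l had 11, 11.3, 8.33 and 6 over 3 regions, and in both genes the genotypes did not overlap. At 4930535B03Rik, whose start was covered, the average heights were 10.5, 12.8, 11.3 and 9, and intervals of both Parp14-/- libraries lay elsewhere on the gene. The remaining one of the 12 overlapped no gene (chr17:31830301-31830900, height 20).

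The 8 longest members lay in genes, 3 of them over a start or an end, and all 8 had a summit in an intron. The longest, of 22500 bp (chr12:32871451-32893950), covered the start of Pik3cg, the catalytic subunit of the phosphoinositide kinase that acts downstream of chemokine receptors, with a height of 15 in Parp14+/+ and 13 in Parp14+/+ + PJ34. Pik3cg had average peak heights of 11.5, 13, 10.5 and 9 and no interval in either Parp14-/- library. Tceb3 encodes elongin A, a factor that speeds elongation by RNA Polymerase II. It had a 15750 bp member over its end (chr4:135556051-135571800) and average heights of 10.5, 12, 6 and 5. Both Parp14+/+ values there were above both Parp14-/- values. The other long members were in Hivep1 (21000 bp), Nsf (18150 bp), Spna2 and Nomo1 (17400 bp each), Inpp5a (16950 bp) and 4831426I19Rik (16650 bp). Of these, 4831426I19Rik had average heights of 7.80, 8, 8 and 8.60, with no step between genotypes, and its member was covered by Parp14+/+ + PJ34 intervals over 1.80% of its length and stood 751 bp from a Parp14-/- interval.

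Several members often shared a gene. The 1467 members overlapped 1000 of the 11608 listed genes (8.61%), or 16.3% of the 6153 genes with any Parp14+/+ interval. For 376 of these genes the member was the only Parp14+/+ interval. There were 208 genes with 2 or more members and 68 with 3 or more. The genes with the most members, named here after their counts had been seen, were Slco3a1, an organic anion transporter, with 13, Cacna1c, a calcium channel subunit, with 11, Inpp5a, an inositol phosphatase, with 10, and Lyst, the regulator of lysosome trafficking that is mutated in beige mice, and Rftn1, a lipid raft protein, with 9 each.

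At Slco3a1 the Parp14+/+ intervals covered 240963 bp and, with PJ34, 144513 bp, whereas the Parp14-/- intervals covered 18363 bp and, with PJ34, 29163 bp. Its average peak heights were 9.18, 9.53, 6.59 and 5.53 in the same order. At Inpp5a intervals covered 110694 and 124944 bp against 0 and 3450 bp, with average peak heights of 8, 9.36, 5.91 and 5.36. Cacna1c had 97500 and 39300 bp against 4650 and 0 bp, with heights of 6.87, 7.35, 5.13 and 4.17. At these long genes the covered length differed between genotypes by far more than the height did. The genes were picked by their number of members, so a gap in covered length was built into the choice.

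Over the 1000 genes under members, intervals of both Parp14-/- libraries lay elsewhere on 415, an interval of 1 of them on 170, and none on another 415. The genes with none were shorter, with a median length of 18154 bp against 65186 bp for those with intervals in both. The Parp14+/+ to Parp14-/- ratio of average peak heights was above 1 in 625 genes and below 1 in 317, where 46.4% of all 11535 genes with a ratio were above 1. It was above 1.4 in 156 (15.6%, where 14.1% of all genes were) and below 0.7 in 27 (2.70%, where 13.3% of all genes were). Of 6152 genes with a Parp14+/+ interval and a ratio, 13.0% were above 1.4 and 7.64% below 0.7. The median ratio was 1.10 under members, 1.05 over genes with a Parp14+/+ interval and 1 over all genes. The rule used these libraries, so this shift only describes the genes it picked, and the share above 1.4 was near that of all genes.

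In the PJ34-treated pair the median ratio was 1.30 under members and 1.13 over all genes, a shift of 0.18 on the log2 scale in all genes, and 1.15 under members relative to all genes. The ratio was above 1 in 857 of the 1000 genes under members, where 60.3% of all genes were. It was above 1.4 in 333 (33.3%, where 22.9% of all genes were) and below 0.7 in 7 (0.7%, where 7.93% of all genes were). Over genes with a Parp14+/+ interval the median was 1.14, with 21.1% above 1.4 and 4.57% below 0.7. Genes without any Parp14-/- interval had median ratios of 1.17 untreated and 1.36 treated. Those with intervals elsewhere in both Parp14-/- libraries had 1.06 and 1.26. A gene can hold several regions, so its average mixes the member with the other regions.

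The height without PARP-14 was read from the active region where a gene had a single one that held 1 Parp14+/+ interval, the member, and no Parp14-/- interval. This was so for 91 members (6.20%). The regions had a median length of 7200 bp against 4650 bp for their members, and 16 were over 2 times as long as the member, so the highest point in a Parp14-/- library may lie outside the member. The height in Parp14+/+ ranged from 5 to 21 with a median of 8, in Parp14+/+ + PJ34 from 5 to 21 with a median of 9, in Parp14-/- from 4 to 18 with a median of 7 and in Parp14-/- + PJ34 from 2 to 12 with a median of 6. The Parp14-/- height was below that of Parp14+/+ in 57 regions, equal in 15 and above in 19. Of all genes with a ratio, 46.4% had a lower average in Parp14-/-. The Parp14-/- + PJ34 height was below it in 73, equal in 11 and above in 7. In 40 of the 91 regions both Parp14-/- heights were below both Parp14+/+ heights. No share over all genes is given beside this count or beside the 73 regions, so neither is read as a trait of members. The regions were kept only where no Parp14-/- interval was called, so lower Parp14-/- heights were partly built in. Fragments thus still piled up in these regions in the Parp14-/- libraries although no interval was called, with a median Parp14+/+ to Parp14-/- ratio of 1.20 in the untreated pair and of 1.5 in the PJ34-treated pair, where all genes had medians of 1 and 1.13.

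**Figure D4:**
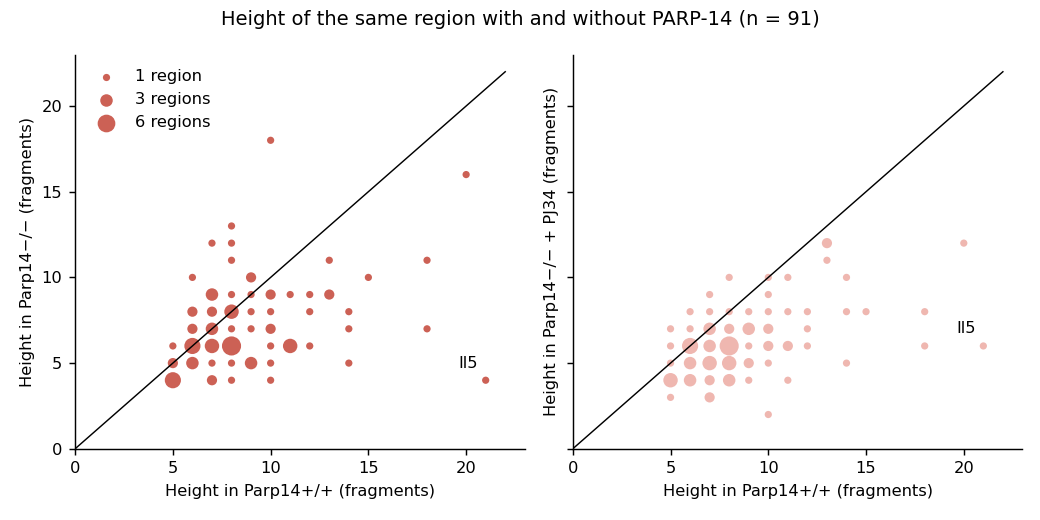
Height of the active region in Parp14+/+ against its height in Parp14-/- (left) and Parp14-/- + PJ34 (right), in overlapping fragments, for the 91 active regions that held 1 member and no Parp14-/- interval. Circle area grows with the number of regions, the line marks equal heights, and Il5, at 21 against 4 and 6, lies farthest below it.

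With no share over all genes given beside it, the ratio reached 2 in 16 of the 91 regions in the PJ34-treated pair and in 8 in the untreated pair. The latter 8 are named here after their values had been seen. Beside Il5 and Tssc4 they were Arntl2, a circadian transcription factor, with 10, 12, 4 and 2 in the order of libraries above, and Mcm5, a subunit of the replicative helicase, with 8, 11, 4 and 4. S100a11, a calcium-binding protein, had 10, 8, 5 and 5, and Tspan31, a tetraspanin, had 12, 8, 6 and 6. Ubn1, which acts in histone deposition, had 14, 11, 7 and 8. In these the 2 genotypes did not overlap, which the choice of high ratios and of regions without a Parp14-/- interval favoured. Chaf1a, the large subunit of chromatin assembly factor, had 14, 7, 5 and 10, and there the PJ34-treated pair went the other way. The largest opposite difference was at Mrps26, a mitochondrial ribosomal protein, with 10, 16, 18 and 10.

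Members were counted at gene lists chosen for these cells, against the 16.3% of genes with a Parp14+/+ interval that lay under members. Few genes of the T cell lists lay under members. Of 22 Th2 genes with a Parp14+/+ interval, 2 did, Il5 and Pparg, of 13 Th1 genes 1 did, Ifngr2, and of 5 genes of other T helper lineages 0 did. Of 35 genes of cytokine receptors and JAK-STAT signalling, 4 did (Il10rb, Pias1, Ptpn11 and Tgfbr2), and of 41 genes of T cell receptor signalling and costimulation, 3 did (Cd6, Lef1 and Nfatc2). No gene did among 24 immediate early, 11 interferon-induced, 80 ribosomal protein, 20 histone and 7 small nucleolar RNA genes.

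Among the other lists, 4 of 35 mitochondrial ribosomal protein genes lay under members (Mrpl37, Mrps18a, Mrps2 and Mrps26), 2 of 36 genes of oxidative phosphorylation (Atp5c1 and Cox6c), 1 of 13 genes of DNA replication (Mcm5), 5 of 35 proteasome genes (Psma6, Psmd14, Psmd4, Psmd5 and Psmf1), 14 of 74 Zfp zinc finger genes and 3 of 52 microRNA genes (Mirn202, Mirn34a and Mirn744). The PARP family had 1 of 11, Parp14 itself, and the B cell and myeloid list had its 1 gene with a Parp14+/+ interval, Csf1r. Of 6 olfactory receptor genes, 1 did. The lists were short, and no test was made of any of these shares.

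Among the Th2 genes, Pparg, a nuclear receptor that acts in Th2 cells and adipocytes, had a 5100 bp member over its listed start (chr6:115371601-115376700, height 9 in Parp14+/+ and 7 in Parp14+/+ + PJ34) that abutted a Parp14-/- interval. Its average peak heights were 9, 9, 7.20 and 7. Of its Parp14+/+ intervals 1 of 7 was a member, and 8 Parp14-/- and 5 Parp14-/- + PJ34 intervals lay on the gene. Most of the Parp14+/+ intervals at Pparg were thus not members, and its average heights were lower in both Parp14-/- libraries than in both Parp14+/+ libraries.

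Receptors and their signalling partners varied. Ifngr2, the signalling chain of the IFN-g receptor, held 2 members, at the start (chr16:91545601-91550700) and at the end (chr16:91560151-91567200) of the gene, with heights of 9 and 8 in Parp14+/+. Its single region had 9, 9, 8 and 7 in the 4 libraries in the order above, a small step between the genotypes. Il10rb, the shared chain of the receptors for IL-10 and related cytokines, lay on the same chromosome with a member over its start (chr16:91404451-91407600, height 6) that also reached the end of the interferon receptor gene Ifnar2, and its region had 6, 10, 8 and 7, so the genotypes overlapped. Tgfbr2, a receptor for TGF-b, had 2 members in introns and average heights of 7, 7.4, 7.4 and 7.20, with no step between genotypes.

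Ptpn11, the phosphatase SHP2 of cytokine signalling, had a 750 bp member near its end (chr5:121581001-121581750, height 5) and average heights of 7, 5.5, 3.75 and 4.50. Pias1 had an intronic member (chr9:62770951-62775150, height 7), average heights of 6.80, 7, 6 and 4.6, and no Parp14-/- interval. For both of these the 2 genotypes did not overlap. The T cell genes Nfatc2, a transcription factor of T cell receptor signalling, with 12.3, 10.5, 11.3 and 9.25, Lef1, with 11.4, 10.4, 9.80 and 9.60, and the surface receptor Cd6, with 12, 14, 11 and 9, each held 1 intronic member among several Parp14+/+ intervals and kept intervals in both Parp14-/- libraries. Their members had heights of 6 or 7 in Parp14+/+.

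Mcm5 had its member across the gene end (chr8:77651251-77657700), with the summit 2895 bp past it and no Parp14-/- interval within 2 Mb, at 2295751 bp. Csf1r, a myeloid receptor gene, had a member with a height of 5 in Parp14+/+ and 10 in Parp14+/+ + PJ34 inside the gene and average heights of 8, 8.50, 6 and 5.5. This member was the only Parp14+/+ interval on Csf1r and also lay inside A630042L21Rik, a gene on the opposite strand. Which gene gave the signal was not tested. Of the myeloid markers Csf1r was the one under an interval in Parp14+/+, and its part in other results was not tested. Parp14 held 4 members, 3 with summits inside the gene and 1 past its end (chr16:35829001-35835000), with heights of 5 to 8 in Parp14+/+ and 7 to 12 in Parp14+/+ + PJ34. Its average heights were 8, 11, 6.67 and 6.67, and 1 interval remained on the gene in each Parp14-/- library. Signal was thus still present over the deleted gene in the Parp14-/- libraries, and the covered length rests on the same interval calls as the rule, so it is no check of the labels.

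**Figure D5:**
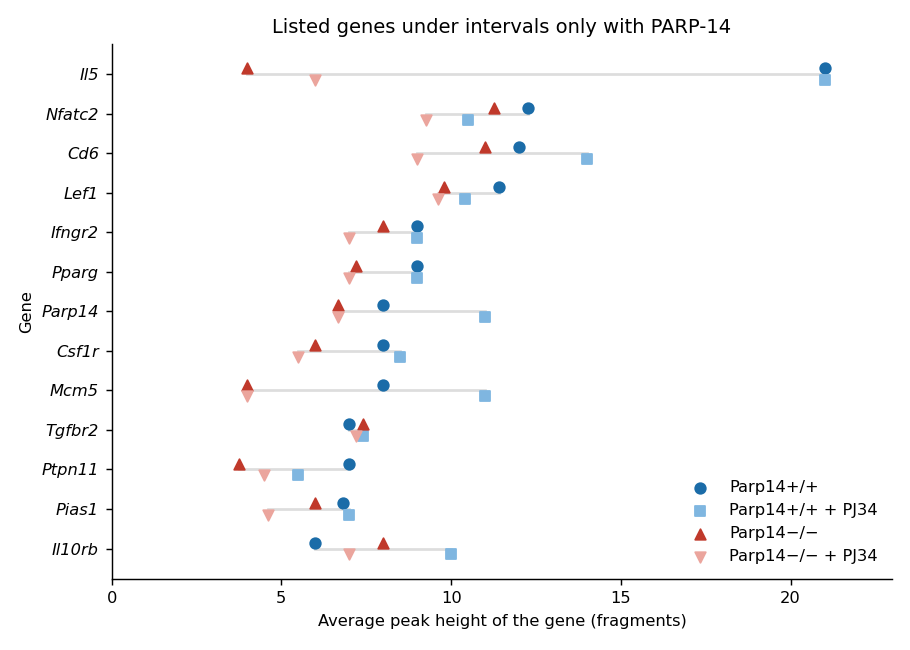
Average peak height (overlapping fragments, 1 value per library) of the 13 genes under members from the Th2, Th1, JAK-STAT, T cell receptor, DNA replication, PARP family and myeloid lists, in the 4 libraries. Il5 has 21 in both Parp14+/+ libraries and 4 and 6 in the Parp14-/- libraries, while at Tgfbr2 the 4 values lie between 7 and 7.4.

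Base composition and transcription factor sequences at the summits were like those of other intervals. In the 301 bp around the summit, 222 members (15.1%) held AGATAA and 222 (15.1%) held a STAT palindrome, and 405 (27.6%, 25.4 to 30) held either, on either strand. Windows of the same length held either in 28.6% of all Parp14+/+ intervals and in 26.5% of intervals in all 4 libraries. Median GC content in the window was 45.5% for members, 46.2% for all Parp14+/+ intervals and 47.2% for intervals in all 4 libraries, with a median of 3 CpG dinucleotides in each. A match of letters is not evidence of binding.

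Members lay on all 20 chromosomes with intervals, from 8.28% of the Parp14+/+ intervals of chromosome 10 and 8.52% of those of chromosome 13 to 17.4% on chromosome 7 and 17.8% on chromosome 18. Chromosome 2 held the largest number, 132. With intervals of 2 kb gaps or less joined before the rule was applied, members were 900 of 7864 joined intervals, or 11.4%.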

How the data were processed

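Chromatin of Th2 cells was immunoprecipitated with an antibody to phosphoserine 2 RNA Polymerase II in 4 conditions. The authors aligned reads with ELAND to mm9, dropped duplicate reads, brought the libraries to equal alignments and called intervals with SICER against Input in 150 bp windows with gaps of 450 bp. The deposited tracks give each interval and its summit signal, a pile-up of fragments read every 32 bp. The authors' gene table gives an average peak height, the mean signal over a gene's active regions, which were merged over all libraries of the table, so a region can span neighbouring genes. Of the genes with 1 region, 96.5% of 3077 had the Parp14+/+ value of the highest summit there. Other libraries had 8 columns of the table and 4 tracks, which were not used.

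Overlaps, medians and Wilson intervals, which cover counting error only, were computed with Python 3.11.15, pandas 2.3.3, scipy 1.17.1 and pysam 0.24.0, and the rule was tested on simulated intervals. The gene body and ends were those of the table, and annotation and sequence came from NCBIM37 with GENCODE genes. Names under members were checked by transcript accession, and 18 of 902 differed. The genes named by plan were those at the 12 tallest and 8 longest members, those of the lists and those at the edge of the rule. Those with the most members and those with region ratios of 2 or more were named after their values had been seen. So were Mrps26, at the largest opposite difference, and Hnrpul1, at the tallest Parp14+/+ + PJ34 summit. The members, lists and rules were chosen with earlier results of these data known. Values in a gene's list of 4 follow the order Parp14+/+, Parp14+/+ + PJ34, Parp14-/-, Parp14-/- + PJ34.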

Additional observations from a re-analysis of the deposited data

How the results depend on the processing

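Over 9 results and 44 alternatives, 30 values stayed within the 95% interval of the value as described, or within 1.5 times for a count, and 14 moved. The number of members fell from 1467 to 913 where no Parp14-/- interval was allowed within 5 kb, to 242 where a height of at least 10 was required and to 900 where intervals were joined over 2 kb gaps. It rose to 4541 with the untreated libraries alone, and was 2014 without the Parp14-/- + PJ34 library. Members covered to at least 50% by Parp14+/+ + PJ34 had a median length of 3900 bp, and 80.4% overlapped a listed gene. With no Parp14-/- interval within 5 kb, 79.3% of members had the summit in a gene body, 17.4% covered a gene start and 28.7% a gene end. At heights of 6 to 9, 10.6% covered a start. Counting members within 1 kb of a gene end, in place of those over it, gave 25.6%. By GENCODE genes 87.8% overlapped a gene. The median ratio was 1.17 over genes with no Parp14-/- interval. A GATA or STAT sequence lay within 500 bp of 67.0% of member summits, against 67.3% for all Parp14+/+ intervals and 65.2% for those in all 4 libraries. Leaving out the Parp14-/- + PJ34 library and the restriction to heights of 6 to 9 were chosen after seeing the data. No paired analysis was possible because there was 1 library for each condition. Depth limits the results, since the median summit was 7 fragments and no library had a replicate.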
